A study of Mus musculus with 23 samples.

Results

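The comparison described here lies inside the CD25+ gate of a study that sorted mouse CD4+ T cells by 2 surface proteins, CD25 and CD49f. It sets CD25+CD49f+ T cells on 4 arrays against CD25+CD49f- T cells on 5 arrays, which is 9 of the 23 arrays of the study, across all 18194 genes measured. The arrays were chosen by their titles, and no measured value entered the choice. The other 14 arrays, 7 of CD25-CD49f+ and 7 of CD25-CD49f- T cells, shared the statistical fit and served as a second setting for CD49f. All samples were labelled as biological replicates of female mice, with total RNA as the starting material. Strain, organ of origin, age, treatment and the number of mice behind a sample are not given in the sources used here. The labels do not say whether the replicates came from separate mice, so the p-values cover only how far these samples spread.

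CD25, the alpha subunit of the receptor for interleukin-2, is carried at a high level by regulatory T cells (Treg cells), which express the transcription factor Foxp3 and restrain other T cells. CD49f is the integrin alpha 6 chain. It reaches the cell surface only as a pair with the integrin beta 1 or beta 4 chain, and both pairs bind laminin of basement membranes. Treg cells range from resting cells that circulate through lymph nodes to activated cells that carry receptors for tissue entry, and some share receptors with the T helper populations that they restrain.

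Values are deposited log2 expression values, and differences are CD25+CD49f+ minus CD25+CD49f- on the log2 scale ± the standard error of the fit. Genes with an adjusted p under 0.05 (limma, Benjamini-Hochberg over 18194 genes) are termed called, and the verbs rose and fell are used only of called genes. Replicate 5 of CD25+CD49f- cells stood apart from the other arrays of its group. Its median correlation with them was 0.981, its Actb 3' to 5' difference, a sign of RNA quality, was 4.83, and it carried both Xist (10.67) and the Y-linked transcript Eif2s3y (8.01). The other 8 arrays had Actb differences from 1.26 to 2.09. Although all samples were labelled female, replicates 1 and 2 of either group carried Xist and replicates 3 and 4 of either group carried Y-linked transcripts. The median difference over all genes was 0.01, and the median standard error of a difference was 0.124. The number of arrays limits the precision. On arrays without Y-linked transcripts Eif2s3y read 2.43 to 3.49 and Uty 5.04 to 5.62, while Xist read 5.65 to 6.50 where it was absent. Values up to this highest reading are called here the range of absent transcripts.

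The labelled cell type was checked first against its defining markers. None of the 10 measured defining T cell markers was called, and their median difference was 0.09, or -0.04 without CD25+CD49f- replicate 5. Without the 4 arrays that stood apart in the whole study, 1 of the 10, Cd4, was called lower. Cd3e, a signalling chain of the T cell receptor complex, read 11.66, 11.71, 11.69 and 11.57 in CD25+CD49f+ replicates 1 to 4 and 11.70, 11.82, 11.52, 11.62 and 11.59 in CD25+CD49f- replicates 1 to 5. The Cd3e values of both groups covered the same range. Cd4 read between 9.06 and 9.20 in CD25+CD49f+ cells and between 9.33 and 9.44 in CD25+CD49f- cells, a difference of -0.27 ± 0.11 that was not called (adjusted p = 0.389). Foxp3 lay between 9.61 and 10.09 in CD25+CD49f+ cells and between 9.67 and 9.90 in CD25+CD49f- cells, so the Treg transcription factor overlapped between the gates (0.06 ± 0.15). Il2ra, which codes CD25, differed by -0.08 ± 0.13.

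The sort marker itself left little trace at the level of its transcript. Itga6, which codes CD49f, read 9.78, 9.84, 9.78 and 9.84 in CD25+CD49f+ cells and 9.84, 9.79, 9.58, 9.73 and 9.28 in CD25+CD49f- cells. The groups overlapped, and the difference of 0.16 ± 0.10 was not called. Its partner chain behaved otherwise. Itgb1, the integrin beta 1 chain, read 10.18, 10.14, 10.08 and 10.24 in CD25+CD49f+ cells and 9.14, 8.87, 8.51, 8.60 and 6.99 in CD25+CD49f- cells. All 4 CD25+CD49f+ arrays lay above all 5 CD25+CD49f- arrays, and the lowest value was that of replicate 5. The difference was 1.74 ± 0.29 (adjusted p = 4.73e-04) with that replicate and 1.38 without it. Another bright Itgb1 probe set differed by 1.97 and a further one by 0.77, and both were called. Itgb4, the other possible partner of CD49f, read from 3.94 to 4.29 in CD25+CD49f+ cells and from 3.95 to 4.58 in CD25+CD49f- cells, in the range of absent transcripts. Of the 24 integrin chains measured, 1 rose and 2 fell. The decreases were Itgae (-1.21 ± 0.21), which codes the CD103 chain that binds epithelial cadherin, and Itgb3 (-0.74 ± 0.15), the beta chain of vitronectin receptors.

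Of the 18194 genes, 332 were called (1.82%), 64 of them higher (0.352%) and 268 lower (1.47%) in CD25+CD49f+ cells. Of the 64 increases, 11 reached a log2 difference of 1, and of the 268 decreases 95 did. All CD25+CD49f+ arrays lay above all CD25+CD49f- arrays for 313 genes (1.72%) and below them for 537 (2.95%). Among the called genes the 2 groups of arrays did not overlap for 62 of 64 increases and 255 of 268 decreases. The number of increases was 32 without the second CD25+CD49f+ array, 33 without the third and 42 without the fourth CD25+CD49f- array. The median size of a called difference was 0.69 among increases and 0.80 among decreases. With replicate 5 of CD25+CD49f- cells left out the calls numbered 310, with 43 increases and 267 decreases, and 281 of them were among the 332. Without the 4 arrays that stood apart in the whole study (that replicate and 3 arrays of CD25- cells), 588 genes were called and all 332 were among them.

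**Figure D1:**
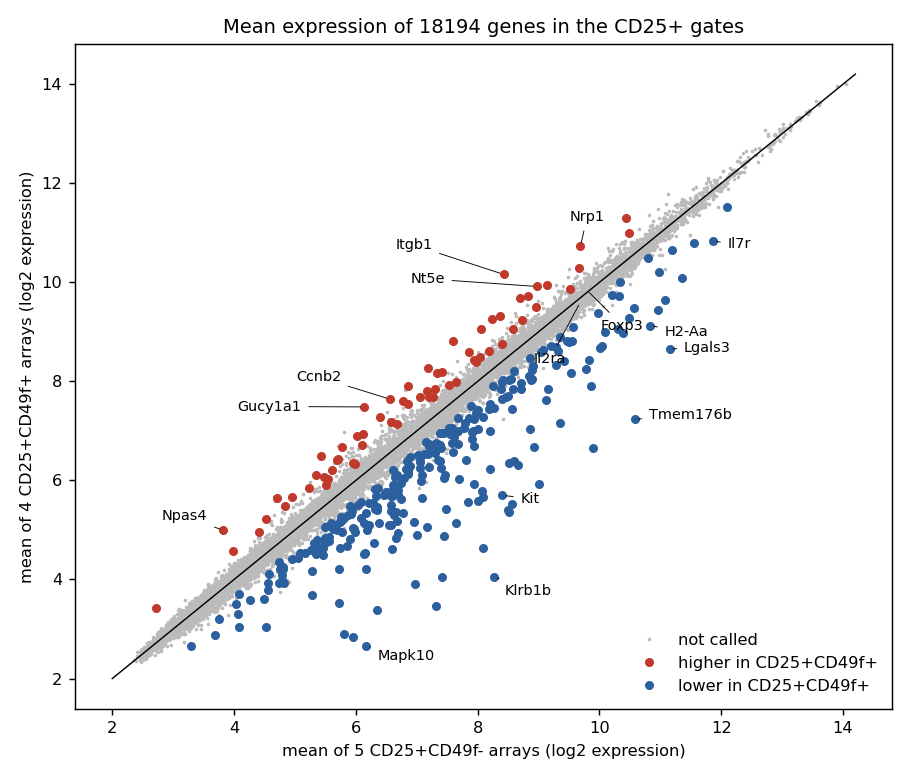
Mean log2 expression of each of 18194 genes in CD25+CD49f- cells (horizontal axis, 5 arrays) and CD25+CD49f+ cells (vertical axis, 4 arrays), with the line of equal values. Red points are the 64 called increases and blue points the 268 called decreases, and the decreases such as Klrb1b and Mapk10 reach much farther from the line than the increases.

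Of the 64 increases 13 were on a list of mitosis genes. Mitosis genes build and control the spindle and separate the chromosomes. Of 60 measured, 13 rose, none fell, and 59 had a difference above 0. Their median difference was 0.54, against 0.01 over all genes tested. The 13 were Birc5, Cdk1, Ccnb2, Ube2c, Top2a, Espl1, Kif4, Aurkb, Kif20a, Plk1, Prc1, Mad2l1 and Cenpe, and for 24 of the 60 every CD25+CD49f+ array lay above every CD25+CD49f- array. The mean over the 60 genes was 7.09, 7.46, 7.41 and 7.02 on the CD25+CD49f+ arrays and 6.70, 6.87, 6.81, 6.48 and 6.65 on the CD25+CD49f- arrays. The arrays of the 2 groups did not overlap, and replicates 2 and 3 were the highest within CD25+CD49f+ cells. These replicates were also the highest in the mean of 16 B cell markers (6.31, 6.84, 6.55 and 6.24), of which none rose and 1 fell, and of 26 myeloid markers (6.16, 6.59, 6.67 and 6.48), of which none rose and 3 fell. The mean of 8 erythroid markers, of which 1 rose, was 6.08, 6.31, 6.41 and 6.05 in CD25+CD49f+ cells and 5.91, 5.93, 5.96, 5.93 and 5.72 in CD25+CD49f- cells, so these groups did not overlap either. The part of these cells in the mitosis values was not tested.

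Mitosis genes as a class carry a promoter element, the cell cycle genes homology region, whose letters are TTTGAA, near CCAAT boxes. The promoters of 4 of the 13 genes are printed here because these genes rose together, from 150 bases before to 20 bases after the transcription start, as RefSeq gives them for GRCm38.p6. They lie at chr10:69352893-69353062 (Cdk1, minus strand), chr9:70421535-70421704 (Ccnb2, minus strand), chr2:164769779-164769948 (Ube2c, plus strand) and chr11:99024170-99024339 (Top2a, minus strand). Each is written 5′ to 3′ on the strand of its gene, and capitals mark TTTGAA and CCAAT on either strand, so that TTCAAA and ATTGG are the same motifs on the other strand.
Cdk1: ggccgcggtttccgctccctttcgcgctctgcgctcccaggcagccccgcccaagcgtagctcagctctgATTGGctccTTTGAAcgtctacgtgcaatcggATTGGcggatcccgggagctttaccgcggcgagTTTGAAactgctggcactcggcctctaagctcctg
Ccnb2: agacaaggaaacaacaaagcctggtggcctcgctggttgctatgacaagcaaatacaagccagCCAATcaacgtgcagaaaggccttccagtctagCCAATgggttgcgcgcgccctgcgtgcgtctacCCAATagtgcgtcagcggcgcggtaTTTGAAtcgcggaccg
Ube2c: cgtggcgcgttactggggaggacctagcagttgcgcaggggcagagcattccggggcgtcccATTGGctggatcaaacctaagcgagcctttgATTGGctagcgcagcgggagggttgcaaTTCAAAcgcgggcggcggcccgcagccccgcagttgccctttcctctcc
Top2a: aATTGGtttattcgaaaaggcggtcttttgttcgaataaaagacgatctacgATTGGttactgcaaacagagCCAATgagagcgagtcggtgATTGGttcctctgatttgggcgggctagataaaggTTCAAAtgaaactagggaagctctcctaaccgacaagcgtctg

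TTTGAA and CCAAT were then searched on both strands from 250 bases before to 50 bases after the start. Neither motif contains the other, and a gene counted if any of its promoters held the motif. Of the 13 called mitosis genes 11 had a promoter in the table, of which 8 held TTTGAA and 9 held CCAAT. Of the 50 mitosis genes with a promoter, called or not, 76% held TTTGAA and 62% held both motifs. Over all 14453 genes tested that had a promoter the shares were 15.7% and 6.21%. The called decreases were near this background, with TTTGAA in 15.6% of 205 genes and both motifs in 3.41%. These shares describe letters in a window and are not binding sites.

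Ccnb2, cyclin B2, which drives entry into mitosis with Cdk1, read 7.18, 7.90, 8.09 and 7.40 in CD25+CD49f+ cells and 6.55, 7.02, 6.84, 6.31 and 6.07 in CD25+CD49f- cells. The groups did not overlap, and the rise was 1.09 ± 0.20 (adjusted p = 0.00201). Ube2c, the ubiquitin-conjugating enzyme of the anaphase-promoting complex, read 8.01, 8.40, 8.76 and 7.92 against 7.25, 7.37, 7.62, 6.83 and 6.88, again without overlap, and rose by 1.08 ± 0.21. Birc5, which codes survivin of the chromosomal passenger complex, rose by 1.05 ± 0.19. Top2a, the topoisomerase that untangles sister chromosomes, rose by 1.00 ± 0.21, and Cdk1 by 0.82 ± 0.15. Kif20a, a kinesin of cell cleavage, rose by 1.07 ± 0.26, but its lowest CD25+CD49f+ array (5.96) lay below its highest CD25+CD49f- array (6.01). The Kif20a call was lost in 5 of the 9 fits that left out 1 array, replicate 5 of CD25+CD49f- cells among them, and in the fit of the compared groups alone (adjusted p = 0.0753). Aurkb, the kinase partner of Birc5, rose by 0.73 ± 0.18 and the polo-like kinase gene Plk1 by 0.60 ± 0.15. Mki67, which codes the proliferation antigen Ki-67, differed by 0.70 ± 0.19 and missed the threshold (adjusted p = 0.0503).

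Genes of DNA replication and the S phase moved less. Of 55 measured, 4 rose, none fell, and 49 had a difference above 0, with a median of 0.29. The increases were Pclaf (0.96 ± 0.25), which codes a PCNA-binding factor, Ccna2 (0.84), cyclin A2, Clspn (0.69), a replication checkpoint adaptor, and E2f8 (0.60), a repressor of E2F targets. Pclaf was near the threshold (adjusted p = 0.0497). Among the fits that left out 1 array it stayed called only without CD25+CD49f- replicate 3. Its other probe sets differed by -0.04 and 0.08 and were not called. The list mean ran from 7.83 to 8.13 in CD25+CD49f+ cells and from 7.55 to 7.88 in CD25+CD49f- cells, which overlapped. Of 21 D cyclins and cell cycle inhibitors, none rose and 1 fell (Cdk6, -0.50). In these sorted bulk samples more cells of a kind and more RNA per cell cannot be told apart.

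The mitosis count rested on a few arrays. When 1 array was left out it was 5 (CD25+CD49f+ replicate 2), 6 (CD25+CD49f+ replicate 3), 7 (CD25+CD49f- replicate 4) and 9 (CD25+CD49f- replicate 5), while it was 27 without the 4 arrays that stood apart. The S phase count was 0 in the first 2 of these fits, 1 in the third and 2 in the last, and also 2 when CD25+CD49f+ replicate 1 was left out. The median of the 60 mitosis genes was 0.49 among the Xist arrays alone and 0.57 among the Y-linked arrays alone, although neither set, with 2 arrays a group, called any of them.

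Outside cell division the largest increase after Itgb1 was that of Gucy1a1, a subunit of the soluble guanylate cyclase that makes cyclic GMP in response to nitric oxide. It read 7.37, 7.89, 7.34 and 7.35 in CD25+CD49f+ cells and 6.54, 6.58, 5.96, 6.10 and 5.48 in CD25+CD49f- cells, without overlap, a rise of 1.35 ± 0.18 (adjusted p = 1.6e-05). The other Gucy1a1 probe sets differed by 0.60 and 1.00, and both were called. Gucy1b1, which codes the partner subunit of the same enzyme and is the next protein-coding gene on chromosome 3, rose by 0.71 ± 0.14. It read from 5.36 to 5.93 in CD25+CD49f+ cells and from 4.76 to 5.21 in CD25+CD49f- cells. None of the other 14 measured genes of the nitric oxide and cyclic GMP pathway was called, among them the nitric oxide synthases Nos1, Nos2 and Nos3 and the kinase gene Prkg1. The count of 2 was the same without each single array.

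Nrp1, neuropilin 1, a co-receptor for semaphorins that is widely used as a marker of thymus-derived Treg cells, read 10.86, 10.93, 10.36 and 10.78 against 9.92, 9.70, 9.63, 9.64 and 9.56. The groups did not overlap, and Nrp1 rose by 1.04 ± 0.27 (adjusted p = 0.0451). The call was lost in 8 of the 9 fits that left out 1 array, while the other Nrp1 probe sets differed by 1.32, 1.45 and 1.13 and were called over all probe sets. Nrp1 and Itgb1 are neighbouring protein-coding genes on chromosome 8. In all, 18 pairs of neighbouring protein-coding genes were both called, 16 of them in the same direction, 4 higher and 12 lower. The share of such pairs among all neighbouring genes was not computed. As 268 of the 332 calls were decreases, a shared direction is common among called genes, and the counts are a description.

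Further genes that rose code surface enzymes and regulators. Nt5e, the ectoenzyme CD73 that makes adenosine, read 9.86, 9.94, 9.95 and 9.92 against 9.14, 9.20, 8.88, 8.89 and 8.73, without overlap, and rose by 0.95 ± 0.15 (adjusted p = 3.99e-04). Plagl1, a zinc finger transcription factor, rose by 1.00 ± 0.15. Its other probe sets, in the range of absent transcripts, differed by 0.13 and 0.39 and were not called. Npas4, a transcription factor induced by calcium signals, rose by 1.17 ± 0.15 from a mean of 3.82, within the range of absent transcripts. Capn3, a calpain protease, rose by 1.21 ± 0.30, or 0.82 without CD25+CD49f- replicate 5, in which it read 6.04 against 7.51 to 8.28 in the others of that group. The Capn3 call was lost in 3 of the 9 fits that left out 1 array and in the fit of the compared groups alone (adjusted p = 0.206), and its other probe set differed by 0.46 and was not called. Lmnb1, a protein of the nuclear lamina, rose by 1.02 ± 0.24. The Lmnb1 call was lost without CD25+CD49f- replicate 1 or 5 and without CD25+CD49f+ replicate 1, 2 or 4. Tiam1, an exchange factor for the small GTPase Rac, read from 11.26 to 11.32 in CD25+CD49f+ cells and from 10.07 to 10.58 in CD25+CD49f- cells and rose by 0.86 ± 0.13. Spry1, an inhibitor of receptor kinase signalling, rose by 0.89 ± 0.12. Of 20 costimulatory and inhibitory receptors measured, 1 rose (Cd28, 0.51 ± 0.13, adjusted p = 0.0495) and 1 fell (Cd160, -1.01 ± 0.12), and none rose without CD25+CD49f- replicate 5. Cd86, a ligand of Cd28 and Ctla4, rose by 0.78 ± 0.17.

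**Figure D2:**
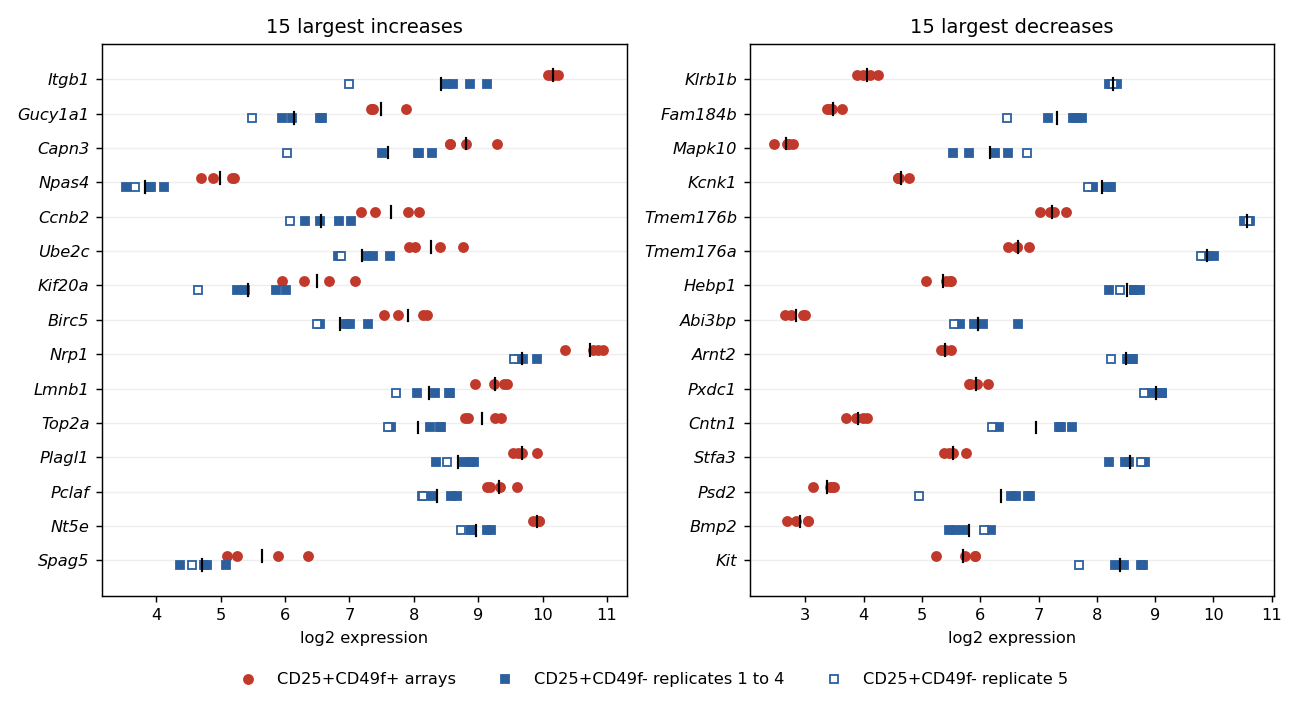
Log2 expression on each of the 9 arrays for the 15 largest increases (left) and the 15 largest decreases (right), with bars at the group means. CD25+CD49f- replicate 5, drawn open, is the lowest array of its group for Itgb1, Capn3 and Psd2, and the groups do not overlap in any gene of the right panel.

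The decreases were larger. Klrb1b, a lectin-like receptor of the natural killer gene complex, read 3.88, 3.99, 4.25 and 4.10 in CD25+CD49f+ cells and 8.26, 8.20, 8.34, 8.27 and 8.27 in CD25+CD49f- cells. It fell by 4.21 on the log2 scale (SE 0.10, adjusted p = 2.76e-20), and its CD25+CD49f+ values lay in the range of absent transcripts, which bounds how far the size can be read. Klrb1f, of the same cluster, fell by 2.11. Of 15 measured lectin-like receptors of that complex 3 fell and none rose, with Klrg1 the other member called.

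Most of the 15 largest decreases were on none of the gene lists. Mapk10, a stress kinase gene, read from 2.45 to 2.79 in CD25+CD49f+ cells and from 5.54 to 6.80 in CD25+CD49f- cells and fell by 3.51. Kcnk1, a potassium channel gene, read from 4.58 to 4.77 against 7.85 to 8.25 and fell by 3.45. Cntn1, a neural adhesion molecule, fell by 3.06, Bmp2, a secreted growth factor, by 2.89, and the Notch ligand gene Dll1 fell by 2.27 and Jag1, another one, fell by 1.57. Arnt2, a transcription factor of the bHLH-PAS family, fell by 3.10, while its other probe sets, at means near 4.51, differed by -0.04 and 0.00 and were not called. Further genes among the largest decreases were Fam184b (-3.85), Hebp1 (-3.16), which codes a heme-binding protein, Abi3bp (-3.12), an extracellular matrix protein, Pxdc1 (-3.09), Stfa3 (-3.03), a cysteine protease inhibitor, and Psd2 (-2.97). The other Fam184b probe sets differed by -0.24 and 0.20 and were not called, and those of Mapk10 differed by -0.71, which was called, and 0.02, which was not. All of these lay in the range of absent transcripts.

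All 15 largest decreases remained called in each of the 24 other settings in which all of them were tested, and the 6 that were among the brighter genes remained called there. Of the 15 largest increases, 11 remained called without CD25+CD49f- replicate 5, 10 without CD25+CD49f+ replicate 2, none among the Xist arrays alone and 3 among the Y-linked arrays alone.

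Genes of type 17 immunity, which is directed at bacteria and fungi at barriers, formed a group of decreases. Of 20 measured, 9 fell and none rose, with a median of -0.39. Tmem176b, a membrane protein gene expressed in type 17 lymphocytes, read 7.02, 7.26, 7.46 and 7.20 in CD25+CD49f+ cells and 10.63, 10.60, 10.53, 10.53 and 10.59 in CD25+CD49f- cells. Its neighbour Tmem176a read 6.63, 6.84, 6.63 and 6.48 against 9.85, 9.90, 10.01, 9.90 and 9.79. Neither gene overlapped between the groups, and they fell by 3.34 (SE 0.13) and 3.24 (SE 0.10). Il17re, a receptor chain for interleukin-17C, read 6.41, 6.37, 6.28 and 6.34 against 8.68, 8.56, 8.58, 8.79 and 8.01 and fell by 2.17. Il1r1, the signalling receptor of interleukin-1, read 5.75, 5.28, 5.28 and 5.38 against 7.88, 7.83, 7.37, 7.51 and 6.81 and fell by 2.06. Both groups of arrays were again apart, with replicate 5 the lowest of the CD25+CD49f- arrays. Ccr6, the receptor for Ccl20, fell by 1.33, Il17rb by 1.21, the cytokine gene Il21 by 1.19 and Rora, a nuclear receptor of the type 17 programme, by 0.51. Cxcr6, given below, was the remaining decrease. Not all members are particular to type 17 immunity, as Il21 is also on the list of follicular helper T cell genes. Il17a itself read from 5.81 to 6.05 in CD25+CD49f+ cells and from 5.92 to 6.12 in CD25+CD49f- cells, in the range of absent transcripts. Il6ra differed by 0.96 ± 0.35 and was not called.

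The type 17 count was 7 to 9 without each single array, 7 among the Xist arrays and 8 among the Y-linked arrays. Receptors of the interleukin-18 branch followed. Of 9 receptors of the interleukin-1 and interleukin-18 families 3 fell, namely Il1r1, Il18rap (-0.92 ± 0.13) and Il18r1 (-0.60 ± 0.11), the last 2 being the chains of the interleukin-18 receptor, coded side by side on chromosome 1.

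Some markers of other lymphocytes also fell. The lists share members, so their counts are not independent. Il17rb is on both the type 17 and the innate lymphoid list, and Klrg1 and Id2 are also on the effector and memory list. Innate lymphoid cells lack a T cell receptor, and some of them, but not all, share much of the type 17 programme. Of 10 measured markers of these cells 5 fell and none rose, with a median of -0.87, and the list mean ran from 6.84 to 7.01 in CD25+CD49f+ cells and from 7.59 to 8.08 in CD25+CD49f- cells. Kit, the receptor for stem cell factor, read 5.24, 5.92, 5.90 and 5.74 against 8.79, 8.46, 8.32, 8.76 and 7.69 and fell by 2.71 (SE 0.34), and a further, dimmer Kit probe set differed by -0.43 and was not called. Id2, an inhibitor of E proteins, read 9.30, 9.61, 9.30 and 9.56 against 11.31, 10.69, 10.86, 11.12 and 10.84 and fell by 1.52. Il7r, the interleukin-7 receptor that Treg cells carry at a low level, read 11.16, 10.97, 10.63 and 10.56 against 12.13, 11.93, 11.63, 11.99 and 11.64 and fell by 1.04. Klrg1 and Il17rb were the other 2 that fell. Gata3 (-0.17), Ncr1 (-0.39) and Arg1 (-0.22) were not called.

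A list of lymphoid tissue inducer cell markers, chosen after the values were seen, had 7 of 16 measured members lower and none higher, with a median of -0.42. Of 6 gamma delta and NKT cell markers 3 fell (5830411N06Rik, Blk and Zbtb16), and their list mean ran from 6.52 to 6.70 in CD25+CD49f+ cells and from 7.12 to 7.21 in CD25+CD49f- cells. The gamma chain variable segments Trgv1 and Trgv4, also named after their values were seen, fell by 2.21 and 0.89. Of 14 NK cell markers 4 fell (Cd160, Eomes, Gzmb and Fasl), with a list mean from 6.10 to 6.48 against 6.42 to 6.78. The 10 defining T cell markers had list means from 10.79 to 10.94 and from 10.37 to 11.04. The part of such cells in the decreases was not tested.

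**Figure D3:**
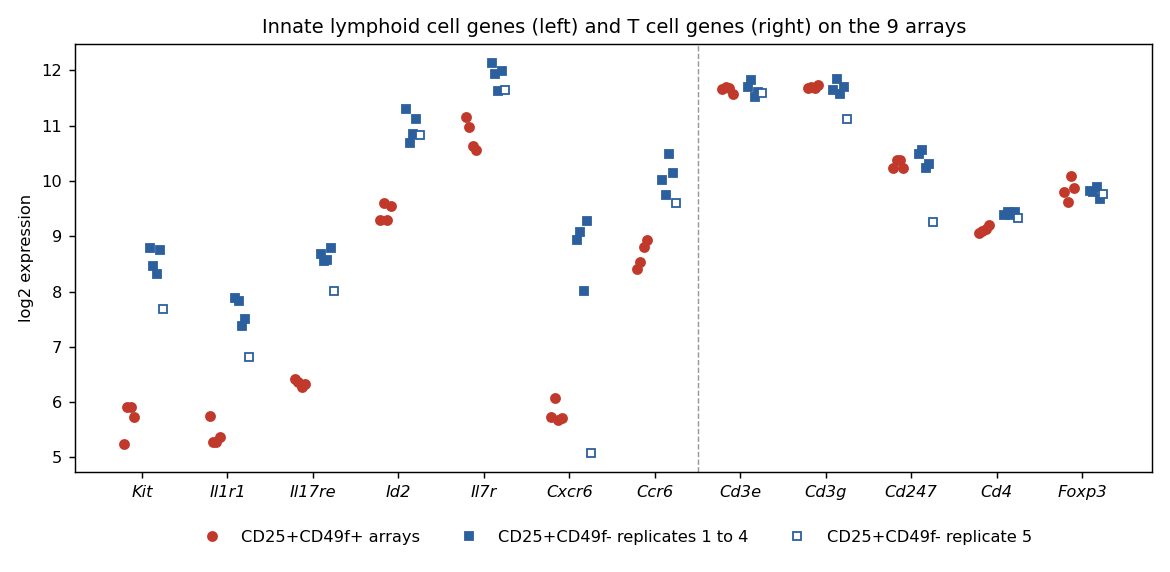
Log2 expression on the 9 arrays for 7 genes picked among the called decreases (left of the dashed line) and for 4 T cell genes with Foxp3 (right). Kit, Id2 and Il7r are from the innate lymphoid list, and Il1r1, Il17re, Cxcr6 and Ccr6 are from the type 17 list. Uncalled members of these lists, such as Gata3, Ncr1 and Arg1, are not drawn. The left genes are lower on all CD25+CD49f+ arrays, except that Cxcr6 read 5.08 on CD25+CD49f- replicate 5, while Cd3e, Cd3g, Cd247 and Foxp3 overlap between the groups.

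Several receptors that direct lymphocytes to the gut and other tissues were lower in CD25+CD49f+ cells. Of 27 chemokine and homing receptors 4 fell and none rose. Ccr9, which guides cells to the small intestine, read 6.36, 6.90, 6.07 and 5.90 against 8.38, 8.77, 8.24, 8.87 and 9.06, without overlap, and fell by 2.36 (SE 0.23). Cxcr6, found on tissue-resident lymphocytes, read 5.72, 6.07, 5.67 and 5.71 against 8.93, 9.07, 8.01, 9.28 and 5.08. Replicate 5 of CD25+CD49f- cells lay below every CD25+CD49f+ array, and the difference was -2.28 ± 0.55 with it and -3.03 without it. The second Cxcr6 probe set differed by -3.47 and was called. Gpr183, the receptor for oxysterols, fell by 0.55, and Ccr6 was the remaining decrease. The count of decreases was 2 in place of 4 when any single array other than CD25+CD49f- replicate 5 was left out. Ccr7 (-0.08) and Ccr4 (0.00) were not called.

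Effector and memory genes, which mark cells that have met antigen, had 12 decreases and 1 increase (Itgb1) among 25 measured, with a median of -0.52. Lgals3, galectin-3, read 8.34, 8.81, 8.83 and 8.65 in CD25+CD49f+ cells and 11.10, 11.18, 11.22, 11.36 and 10.90 in CD25+CD49f- cells, without overlap, and fell by 2.49 (SE 0.15). Klrg1, an inhibitory receptor of differentiated lymphocytes, read 7.95, 8.09, 7.74 and 7.84 against 9.90, 9.99, 9.77, 9.77 and 9.83 and fell by 1.95. S100a4, a calcium-binding protein, fell by 1.27, Anxa1, annexin A1, by 0.95 and Gzmb, granzyme B, by 0.74. Cd44, the usual marker of antigen experience, differed by -0.04 and was not called. The decreases numbered 10 or 11 without each single array.

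The Treg identity list held calls in both directions. Of 23 Treg identity genes, 3 rose (Nrp1, Plagl1 and Nt5e) and 3 fell (Penk, Itgae and Satb1), with a median of 0.05. Satb1, Foxo1 and Bach2 are also on the list of naive and quiescence genes. The members thus have no common direction, and the fall of Satb1 is not read as a loss of Treg identity. Penk, which codes the enkephalin precursor, read 8.77, 9.03, 8.98 and 9.46 against 10.09, 10.27, 10.43, 10.41 and 10.28 and fell by 1.24. Ikzf2, the transcription factor Helios, differed by 0.28 and Ctla4, the inhibitory receptor, by 0.35, and neither was called. Of 21 Treg suppressive effectors 5 fell and 1 rose. The decreases were Klrg1, Itgae, Penk, Ebi3 (-0.82 ± 0.16), a subunit of interleukin-35, and Gzmb. The increase was Nt5e. Il10 differed by -0.62 ± 0.16 and missed the threshold (adjusted p = 0.0525). Of 27 genes of tissue and effector Treg cells 5 fell and none rose, with a median of -0.10. This last count was 3 when the first CD25+CD49f- array was left out, and likewise for CD25+CD49f+ replicates 1, 2 and 4.

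Among 30 lineage transcription factors 7 fell and none rose, with a median of -0.16. They were Batf3 (-1.78 ± 0.19), Id2, Prdm1 (-0.95 ± 0.18), which codes Blimp-1, Runx3 (-0.80), Eomes (-0.75), Zbtb16 (-0.72), which codes PLZF of innate-like T cells, and Rora. Prdm1 read from 6.51 to 6.94 in CD25+CD49f+ cells and from 7.33 to 7.98 in CD25+CD49f- cells. The master regulators Tbx21 (-0.15), Gata3 and Bcl6 (-0.17) were not called. The count was 4 without CD25+CD49f+ replicate 1. Of 27 T cell cytokines 4 fell (Ccl1, Il21, Il2 and Ccl5) and none rose, and the count was 2 without any of 5 arrays: CD25+CD49f- replicates 1, 3 and 4 and CD25+CD49f+ replicates 3 and 4. Il2 and Il21 lie side by side on chromosome 3 and read from 4.58 to 5.26 in CD25+CD49f+ cells and from 5.27 to 6.54 in CD25+CD49f- cells, largely in the range of absent transcripts.

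The antigen presentation genes of MHC class II, which define B cells and dendritic cells, held decreases too. Of 14 measured, 4 fell and none rose. H2-Aa read 8.30, 9.49, 9.78 and 8.93 in CD25+CD49f+ cells and 10.71, 10.73, 10.91, 10.61 and 11.20 in CD25+CD49f- cells, without overlap, and fell by 1.70 (SE 0.27). H2-Ab1 fell by 1.54, Cd74, the invariant chain, by 1.41 and H2-Eb1 by 1.39. The CD25+CD49f+ arrays were widely spread, with replicate 1 the lowest in all 4 genes, and the count of decreases was 1 without that replicate. H2-Aa, H2-Ab1 and H2-Eb1 are neighbours on chromosome 17. Of 16 B cell markers 1 fell (Blk), and their list mean ran from 6.24 to 6.84 in CD25+CD49f+ cells and from 6.09 to 6.84 in CD25+CD49f- cells. Of 26 myeloid and dendritic cell markers 3 fell, namely Fcer1g (-1.98 ± 0.30), Batf3 and Adgre1 (-0.93), and their list mean ran from 6.16 to 6.67 against 6.40 to 6.83. Within CD25+CD49f+ cells replicates 2 and 3 were the highest in the means of the MHC class II, B cell and myeloid lists alike. Their part in the MHC class II values was not tested.

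Genes of naive and quiescent T cells did not run opposite to the effector genes. Of 19 measured, 6 fell and none rose, with a median of -0.17. They were Ccr9, Pdlim4 (-1.09), Il7r, Igfbp4 (-0.77), Dapl1 (-0.68) and Satb1 (-0.53), while Lef1 (-0.18) and Klf2 (-0.24) were not called. No member was called among the genes of glycolysis (19 measured), cholesterol biosynthesis (20), the mitochondrial respiratory chain (43), the interferon response (27), heat shock and dissociation stress (17) or ribosomal proteins (34). Their medians ran from -0.08 to 0.03.

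**Figure D4:**
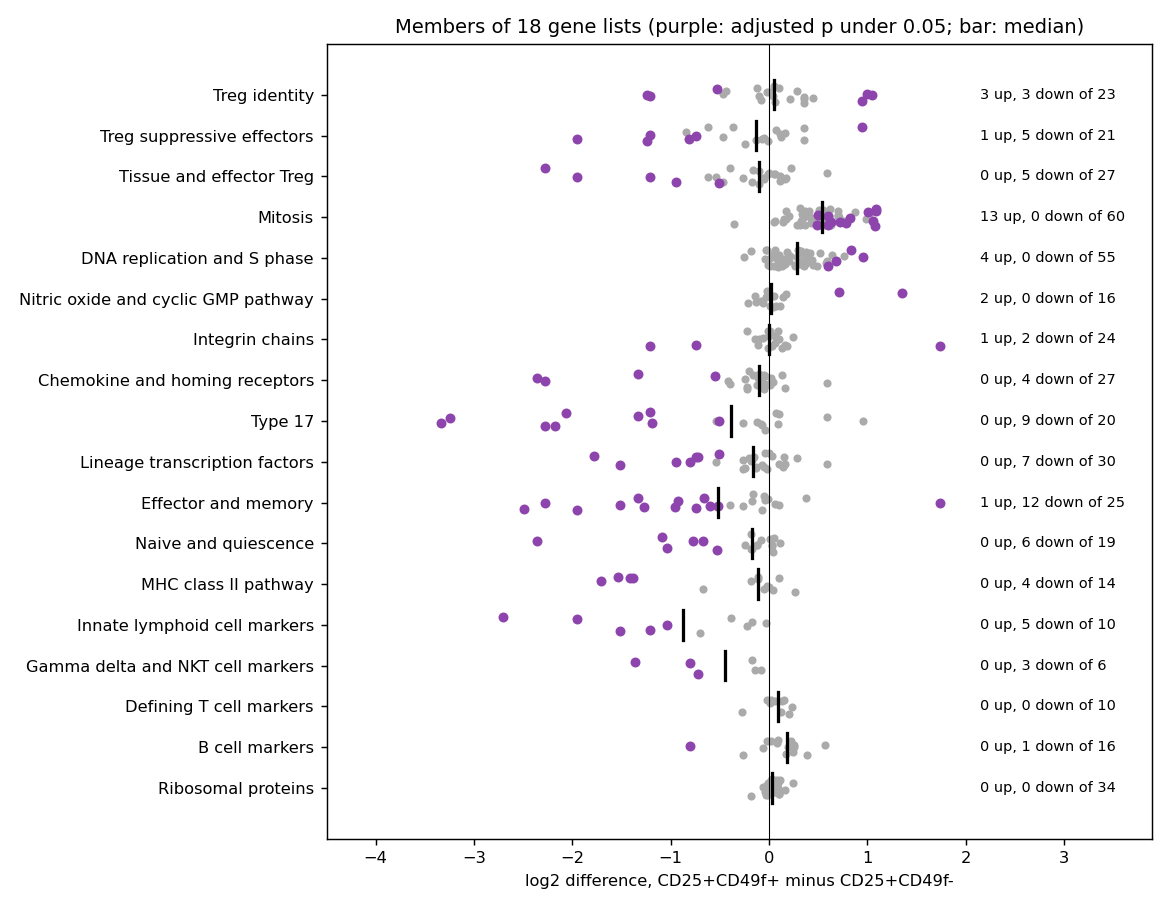
Log2 differences of the measured members of 18 gene lists, with 1 point per gene, purple where called, and a bar at the list's median. The mitosis list lies to the right of 0 almost whole, while the type 17, effector and innate lymphoid lists spread to the left and ribosomal proteins stay near 0.

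The 14 arrays of CD25- cells, which share no array with the comparison above, gave a second view of the same genes. Foxp3, which overlapped between the CD25+ gates, averaged 8.25 with CD49f and 4.74 without it on these arrays, a difference of 3.51. Il2ra rose by 1.42 on them, and of the 23 Treg identity genes 19 rose and 3 fell. The part of this Foxp3 difference in the counts below was not tested. There, 8.01% of all genes were called higher and 5.42% lower in CD49f+ cells. Of the 64 genes that rose within CD25+ cells, 58 (90.6%) were called higher in CD25-CD49f+ cells as well and 2 were called lower. Of the 268 that fell, 70 (26.1%) were called lower, 54 (20.1%) were called higher and 144 were not called. The fits share an estimate of each gene's spread.

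The increases were in part larger outside the CD25+ gate. Of the 60 mitosis genes 56 were called higher with CD49f there. For each of the 13 that rose within CD25+ cells the CD25-CD49f+ group had the highest mean of the 4 gates. Ccnb2, for instance, averaged 5.96 in CD25-CD49f-, 8.92 in CD25-CD49f+, 6.56 in CD25+CD49f- and 7.64 in CD25+CD49f+ cells. Its difference was smaller by 1.87 within CD25+ cells, and this interaction was called (adjusted p = 2.19e-05). The interaction was called for 5.31% of all genes and for 48 of the 60 mitosis genes. Itgb1 rose by 2.13 in CD25- cells, and its interaction of -0.39 was not called. Gucy1a1 averaged 3.89, 5.62, 6.13 and 7.48 in the same order of gates, which is highest in CD25+CD49f+ cells, with an interaction of -0.38 that was not called. Of the 64 increases, 38 had their highest mean in CD25+CD49f+ and 25 in CD25-CD49f+ cells. Over all 18194 genes tested these counts were 4700 and 3327. The CD25+ arrays also chose the 64 genes, so the counts are a description.

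Most of the largest decreases were carried by 1 gate. Klrb1b averaged 4.23 in CD25-CD49f-, 3.98 in CD25-CD49f+, 8.27 in CD25+CD49f- and 4.06 in CD25+CD49f+ cells. Mapk10 averaged 2.70, 2.69, 6.17 and 2.66, and Bmp2 2.96, 2.93, 5.80 and 2.91. The means of the other 3 gates lay in the range of absent transcripts for these genes. For Mapk10 and Bmp2 the CD25+CD49f- mean lay within it as well, although it was above the means of the other 3 gates on the same probe set. The interaction, which holds the same CD25+ difference that chose these genes, was called for all 15 of the largest decreases. Over the 268 decreases CD25+CD49f- cells had the highest mean of the 4 gates for 197 genes, and for 121 every CD25+CD49f- array lay above all 18 other arrays. Over all 18194 genes tested the same counts were 4129 and 157 (0.863%). The CD25+CD49f- arrays also chose the 268 genes, so the counts are a description.

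Other decreases followed different paths. S100a4 averaged 9.58 in CD25-CD49f-, 11.40 in CD25-CD49f+, 11.35 in CD25+CD49f- and 10.08 in CD25+CD49f+ cells, so it was called higher with CD49f outside the CD25+ gate and lower within it. Of the 25 effector and memory genes 21 were called higher in CD25-CD49f+ cells and none lower, and the interaction was called for 22. Klrg1 and Itgae rose by 1.16 and 2.36 in CD25- cells, with interactions of -3.11 and -3.57. H2-Aa, H2-Ab1, H2-Eb1 and Cd74 fell in CD25- cells as well, by 1.48, 1.82, 1.85 and 1.73, and none of their interactions was called. Il7r differed by -0.40 in CD25- cells.

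**Figure D5:**
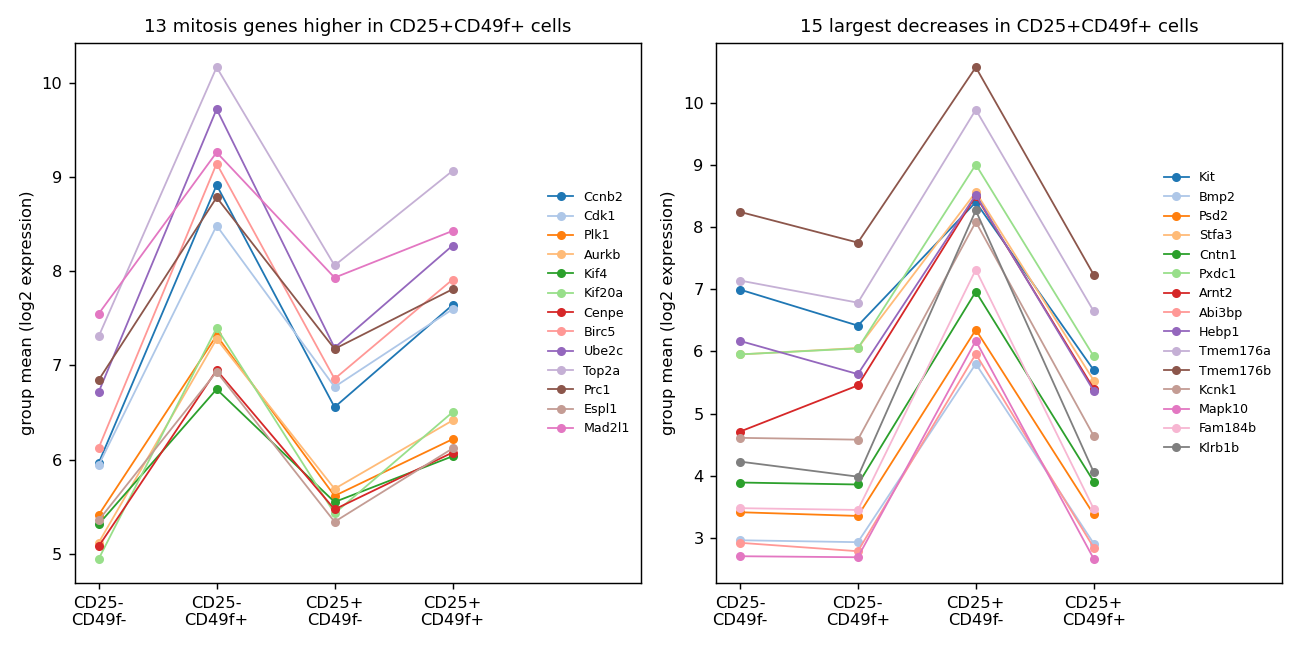
Group means of log2 expression in the 4 gates for the 13 mitosis genes that rose within CD25+ cells (left) and for the 15 largest decreases (right). The mitosis genes peak in CD25-CD49f+ cells and are next highest in CD25+CD49f+ cells, and the genes on the right peak in CD25+CD49f- cells.

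Signals of absent transcripts bound the size of many differences. Of the 268 decreases 161 had a CD25+CD49f+ mean under 6.50, the highest such reading, which was that of Xist. Of the 64 increases 25 had a CD25+CD49f- mean under it. In both groups 107 decreases and 39 increases lay above it. Under it in both lay 89 decreases and 18 increases, among them Gucy1b1, Mapk10 and Bmp2. The lower of the 2 group means had a median of 6.03 among decreases, 7.11 among increases and 6.03 over all genes tested. By this measure the decreases were no dimmer than genes in general, and the share of all genes under 6.50 was not computed. Of the 332 called genes 178 had another probe set. For 59 of these another probe set was called in the same direction, and for none in the opposite direction.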

How the data were processed

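Total RNA of sorted T cells was hybridised to Affymetrix mouse arrays, 1 array per sample. The deposited values are log2 expression values per probe set, made by the authors with RMA per the submitters' processing notes; no version of it was given in the sources used. RMA quantile-normalizes whole arrays, so values are relative within the set. Of 45101 probe sets 34958 named 1 gene in the platform annotation, 932 several and 9211 none; 34754 were matched by Entrez number. Each of 18194 genes was represented by its brightest probe set (mean over 23 arrays). No deposited column was left unmapped.

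All 23 arrays in 4 groups were fitted with limma 3.58.1 (lmFit, eBayes) in R 4.3.3, with Benjamini-Hochberg adjustment over 18194 genes and calls at adjusted p under 0.05. Tables and figures were made with Python 3.11.15, pandas 2.3.3 and matplotlib 3.10.9. The script was tested on simulated data. Named genes are the sort markers, Itgb1, Foxp3, the 15 largest called increases and decreases (clone numbers such as 1810073O08Rik passed over), up to 6 called and 3 uncalled members of each of 45 lists, and further probe sets of these. Other genes were named after their values were seen, such as neighbouring genes and the last members of a list's count. The comparison, the lists and the tests were chosen with earlier results of these data known, and the lymphoid tissue inducer list and the fits of 8 arrays were added after the values were seen. Of 1039 list entries 928 were measured. These covered 745 different genes, as lists share members. The 26 alternative settings concerned single arrays, replicate numbers, array weights, the variance model, scaling, probe sets, dim genes, sex-linked transcripts and the threshold.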

Additional observations from a re-analysis of the deposited data

Results flagged for a closer look

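Some arrays stood apart from the others of their group, by a gap to the nearest array that exceeded Dixon's limit. CD25+CD49f- replicate 5 did so in its median correlation with its group (0.981) and in its Actb 3' to 5' difference (4.83), and among genes in Arnt2 (8.25) and Psd2 (4.94). In CD25+CD49f+ cells Gucy1a1 stood apart on replicate 2 (7.89) and Kcnk1 on replicate 1 (4.77). In all, 4 of 66 sets of a gene and a group had an array apart, and chance gives about 5% of sets.

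For 27 of 33 leading genes the CD49f difference within CD25+ cells differed from that within CD25- cells (limma interaction, adjusted p under 0.05). The sort markers and Foxp3 were among them. Over all genes tested the interaction was called for 5.31%. It holds the same CD25+ difference that chose the 15 largest increases and the 15 largest decreases, so for these the count is a description. The interaction, CD25+ minus CD25-, was 0.60 for Itga6, -1.51 for Il2ra and -3.46 for Foxp3. Outside the CD25+ gate Itga6 averaged 9.79 without CD49f and 9.36 with it. This difference of -0.44 was called (limma, adjusted p = 3.21e-04), so the transcript of the sort marker was lower where the marker was present. Among the leading genes that rose within CD25+ cells, each of the called interactions was negative, with the larger difference in CD25- cells, while Npas4 (0.63) and Lmnb1 (0.12) had positive values that were not called. The called value was -1.87 for Ccnb2, -1.92 for Ube2c, -1.38 for Kif20a, -1.96 for Birc5, -1.85 for Top2a, -1.71 for Spag5 and -2.08 for Pclaf, which are genes of cell division. It was -1.60 for Nrp1 and -1.07 for Nt5e.

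Among the genes that fell, the lectin-like receptor gene Klrb1b had an interaction of -3.97. The membrane protein genes Tmem176b and Tmem176a had -2.85 and -2.89, and Kit had -2.12. The values were -3.82 for Fam184b, -3.49 for Mapk10, -3.42 for Kcnk1, -2.62 for Hebp1, -2.98 for Abi3bp and -3.85 for Arnt2. They were -3.18 for Pxdc1, -3.03 for Cntn1, -3.14 for Stfa3, -2.91 for Psd2 and -2.86 for Bmp2.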

How the results depend on the processing

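The 26 alternatives moved the number of calls more than their direction. Called, higher, lower and interaction counts, in that order, were 332, 64, 268 and 966 as reported. They were 762, 211, 551 and 2273 with array weights and 588, 144, 444 and 1710 without the 4 arrays that stood apart. They were 119, 3, 116 and 370 among the Xist arrays and 92, 7, 85 and 242 among the Y-linked arrays, each with 2 arrays per CD25+ group. At an adjusted p under 0.01 there were 211 calls, 27 of them higher, and 599 interactions. With every probe set as a feature 500 were called and 411 lower, and among the brighter genes 203 and 159. Without single arrays the number of increases ran from 32 to 72. Other than by the choice of arrays or features and the threshold, the causes were not tested.

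Both groups carry replicate numbers. The correlation of deviations within numbers 1 to 4 was -0.10, 0.38, 0.12 and 0.12 over all genes, so the numbers were not taken to pair the samples, since number 1 is not over 0.1. Over the brighter 50 percent of genes it was 0.14, 0.38, 0.30 and 0.18, all over 0.1, and replicates 1 and 2 of either group share Xist and replicates 3 and 4 Y-linked transcripts. Over these brighter genes each of CD25+CD49f- replicates 1 to 4 correlated most with its own number. Replicate 4 of CD25+CD49f+ cells correlated more with CD25+CD49f- replicate 3 than with its own number, over all genes (0.21) and over the brighter genes (0.26). These values do not settle whether the numbers pair the samples. With the replicate number as a block in the fit of 23 arrays 322 genes were called, 64 higher and 258 lower, with 985 interactions, and as a random block 322 (59 higher). Under the fixed block Capn3 (adjusted p = 0.0679) and Kif20a (adjusted p = 0.0566) were no longer called, while the other 13 of the 15 largest increases were. In the 8 arrays with shared numbers fitted alone, the block gave 635 calls (180 higher, 455 lower), against 495 (110 higher) without it.

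Over the leading genes 762 of 845 values kept direction and call, 79 lost the call and 4 reversed, all of uncalled genes. These were Foxp3 without CD25+CD49f+ replicate 3 (-0.025, in a range from -0.025 to 0.13 over single arrays left out) and among the Xist arrays (-0.10), Itga6 among the Xist arrays (-0.0055) and Il2ra among the Y-linked arrays (0.066). Of 2392 list counts 247 moved by over 1.5 times. Signal over background limits the genes within the range of absent transcripts.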

Other observations

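The calls of the remaining gene lists are read against 1.82% of all genes called. Of 14 Th1 genes, which belong to the interferon-gamma lineage, 5 fell and none rose (Il18rap, Il18r1, Runx3, Eomes and Ccl5), and Ifng differed by -0.35 and was not called. The Th1 count was smaller when 1 array was left out, to 2 (CD25+CD49f+ replicate 1) or 3 (CD25+CD49f+ replicate 3 or 4, or CD25+CD49f- replicate 1 or 2). Of 15 genes of follicular helper T cells 2 fell, Il21 and Tox2 (-1.01 ± 0.15), a nuclear factor of the TOX family. None of 11 Th2 genes was called. Of 29 receptors and ligands of the TNF family 3 fell, namely Tnfsf14 (-0.97 ± 0.21), the ligand LIGHT, Fasl (-0.52), the death ligand, and Tnfrsf25 (-0.46), the receptor for TL1A, and the count was 1 without CD25+CD49f+ replicate 1. Of 27 cytokine receptors outside the interleukin-1 family 3 fell, Il17re, Il17rb and Il7r.

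Of 27 early genes of T cell receptor signalling 1 rose (Npas4) and 1 fell (Fosl2, -0.70, a member of the AP-1 family). Of 20 targets of interleukin-2 and STAT5 2 fell, Gzmb and Cdk6, and the count was 1 without CD25+CD49f+ replicate 1. Of 15 laminins and other laminin receptors, the ligands and alternative binders beside CD49f, 1 fell, the tetraspanin gene Tspan4 (-0.65 ± 0.12).

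Among markers of further cell types, of 8 CD8 T cell markers 2 fell (Eomes and Ccl5), and this count was 0 when CD25+CD49f- replicate 1 or 2 or CD25+CD49f+ replicate 1, 3 or 4 was left out and 1 for CD25+CD49f- replicates 3, 4 and 5. Of 14 platelet markers 3 fell, Nrgn (-1.22 ± 0.10), F2rl2 (-1.01) and Itgb3, with array means from 4.94 to 5.13 in CD25+CD49f+ cells and from 5.02 to 5.42 in CD25+CD49f- cells. Of 8 erythroid markers 1 rose (Rhd, 0.40), with array means from 6.05 to 6.41 against 5.72 to 5.96, which did not overlap. Car1, the erythroid marker with the highest difference, differed by 1.17 ± 0.37 and was not called. Of 10 thymocyte markers 1 fell (Themis, -0.57) and of 8 plasma cell markers 1 fell (Prdm1). None of 11 neutrophil markers and none of 16 stromal and endothelial markers was called.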
